A study of Mus musculus with 18 samples.

Results

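DNA replication and S-phase genes were followed through exposure of BV2 cells to oxyhemoglobin. BV2 is an established mouse microglial cell line, and oxyhemoglobin is the oxygen-carrying form of the blood pigment released when red cells break down. The set is a fixed list of 52 genes, chosen by gene name from the known parts of the replication machinery. It was chosen with earlier results of these data known. All 52 were found on 1 identifier each among 55487 genes in the deposited tables. Of these, 50 passed the filter on low counts and were tested. The 2 left out were Fen1, which had no count in any library, and Ccne2, with 69 counts over all libraries.

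The 18 libraries came from 2 lines, labelled NC and BAK1-KD (written KD here), each untreated (0 h, the control) or treated with oxyhemoglobin for 12 h or 24 h, with 3 libraries in each of the 6 groups. The labels give the dose as 10 mM. The labels do not say how Bak1 was knocked down, whether each line was 1 clone, or whether the libraries of a group came from separate cultures, and p-values therefore reflect the variation among libraries, which may be technical. No untreated 12 h or 24 h libraries were analysed here, so time in culture and treatment cannot be told apart.

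Library totals ran from 4361313 to 6008810 counts. Bak1, the targeted gene, had 25 counts over the 9 NC libraries (0 to 7 in each) and 39 over the 9 KD libraries (1 to 12). Its counts were thus few and not lower in the libraries labelled KD. Of its exon bases 14.0% belong to 1 annotated transcript, and how reads in shared exons were counted is not given. These counts therefore do not show whether its RNA was lower. The line names are used below as labels. All 14 microglia and macrophage markers had counts, with summed levels of 533 to 711 counts per 1000000 counts (CPM) in the NC libraries and 629 to 947 in the KD libraries, while 5 lists of other cell types (29 markers) summed to at most 13.6 CPM a list in any library. Rbfox3, Snap25, Syt1, Aqp4, Slc1a3, Aldh1l1, Mog, Olig2, Col1a2 and Dcn, defining genes of neurons, glia and fibroblasts, had no count. The microglial sum was 590 to 711, 649 to 709 and 533 to 569 CPM in the NC controls, 12 h and 24 h libraries. In the KD line it was 829 to 869, 794 to 947 and 629 to 715 CPM, above the NC line at each time. On the mean of both lines, 2 of 11 tested ones were higher and 3 lower at 12 h. At 24 h 2 were higher and 4 lower. Of all tested genes 13% were higher and 12.3% lower at 12 h, and 9.99% and 7.76% at 24 h. Some markers of the other lists, at low levels, also moved with time or differed between the lines. The 7 fibroblast and endothelial markers summed to 1.48 to 2.65 CPM in the NC controls, 5.403 to 6.83 after 12 h and 6.97 to 8.105 after 24 h, and to 3.33 to 6.098, 4.54 to 8.62 and 7.01 to 13.6 CPM in the KD line. The 5 astrocyte markers summed to 2.504 to 4.62, 6.65 to 7.93 and 2.95 to 8.66 CPM in the NC line and to 1.87 to 4.42, 2.59 to 7.58 and 5.24 to 7.53 CPM in the KD line. Kdr and S100b rose at 12 h on the mean of both lines. The 1 oligodendrocyte marker tested fell on that mean (log2 change -0.96). Tubb3, the 1 neuron marker tested, was higher in KD than NC libraries at 12 h (log2 change 2.78) and 24 h (2.27). It was also higher on the mean of times (2.14) and did not pass the threshold in the controls (1.36). The part of these markers in the results was not tested.

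Before S phase, the origin recognition complex, Cdc6 and Cdt1 load the ring of the Mcm2 to Mcm7 proteins onto DNA, and Cdc45 and the GINS complex then turn that ring into the active helicase. Polymerase alpha with primase starts each strand, the clamp Pcna and its loader RFC hand over to the polymerases delta and epsilon, and ribonucleotide reductase supplies the building blocks. Most of these genes are transcribed in G1 and S phase under E2F transcription factors, and microglial lines such as BV2 divide in culture. In bulk RNA, fewer cells in S phase and less of these RNAs per cell cannot be told apart.

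Most of the tested set fell at 12 h, and some of it rose again by 24 h. At 12 h, 31 of the 50 tested members fell on the mean of both lines and none rose. Of all 15996 tested genes 12.3% fell and 13% rose. The median log2 fold change of the members was -0.64, against -0.00 for all tested genes. From 12 h to 24 h, 21 members rose and none fell, against 5.14% of all tested genes rising and 3.49% falling. Of the 31 that fell, 18 rose from 12 h to 24 h and 13 did not pass the test for a rise. The median change of the members was 0.57. At 24 h against the controls, 4 members were higher (background 9.99%) and 1 was lower (background 7.76%), and the median was -0.04. Under total-count scaling the split at 24 h was 4 higher and 5 lower, and 3 members were called without the NC 24 h library 3. With the library number as a block the split was 6 higher and 6 lower. In that comparison not every pair of libraries with the same number correlated over 0.1 (lowest 0.0703). These 3 comparisons share libraries and are not independent of each other. The summed level of the 52 members showed the same course. NC controls summed to 2696, 2221 and 2481 CPM, NC libraries of 12 h to 2178, 1765 and 2156, and those of 24 h to 2837, 2442 and 3083. KD controls summed to 3115, 2688 and 3137 CPM, KD libraries of 12 h to 1916, 1591 and 1782, and those of 24 h to 3142, 2772 and 2979. In each line every 12 h library lay below every control and every 24 h library. The share of counts on mitochondrial genes also dipped, from 1.06% to 1.55% in the NC controls to 0.605% to 0.97% after 12 h and 0.833% to 2.05% after 24 h, and in the KD line from 1.27% to 2.37% to 0.918% to 1.33% and 1.34% to 2.12%. The gene with the most counts, CT010467.2, took 17.4% to 21.5%, 13.1% to 17.2% and 16.6% to 25.3% of the counts in the NC line and 13.8% to 21.0%, 12.9% to 15.4% and 14.2% to 20.4% in the KD line, in the same order. Their part in the results was not tested. The library numbered 2 was the lowest of its group in all 6 groups. Without these 6 libraries, a check added after seeing the data, 22 members fell at 12 h and 21 rose from 12 h to 24 h on the mean of both lines. The shares of all tested genes called on that mean in this check are not given. For NC at 12 h the check called 10 members and 1502 genes in all, against 13 and 1958 in the main fit.

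**Figure D1:**
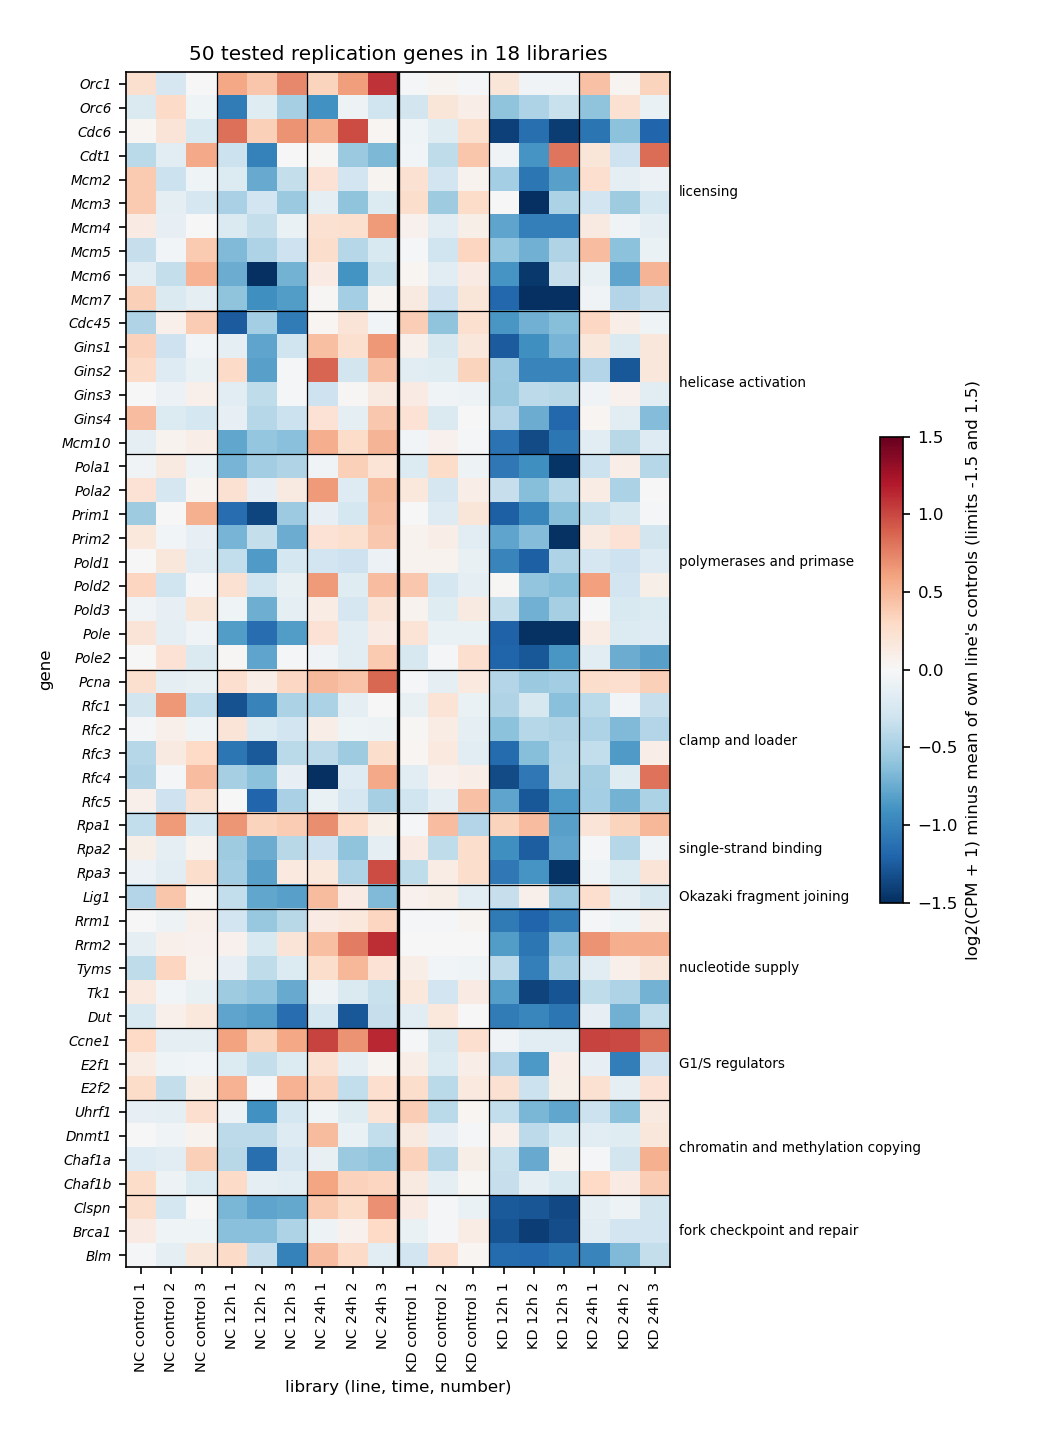
Level of each of the 50 tested members (rows, grouped by role) in each of the 18 libraries (columns), as log2(CPM + 1) minus the mean of the 3 control libraries of the same line. Blue is lower and red is higher than the controls, with the colour limits as drawn on the scale bar. The 12 h columns are mostly blue in both lines, and most deeply so in the KD line, while Ccne1 is red in all 6 columns of 24 h.

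Because E2F factors are the known shared regulators of this set, the promoters of the members were searched for E2F-type letters. RefSeq promoters (GRCm38.p6, 250 bases before to 50 after the gene start) were matched by symbol for 44 of the 52 members. The letters TTTCCCGC, TTTGGCGC, TTTCGCGC or TTTGCCGC, on either strand and with overlapping matches counted once, were found for 18 of the 44 members (40.9%), against 2.605% of all 27025 genes with a promoter (2.26% of all 32851 promoters). For comparison, CCAAT on either strand was found for 28 of the 44 members (63.6%) and 41.1% of all genes, and TTTGAA for 7 members (15.9%) and 20.2% of genes. The windows below show matches that lie upstream of the RefSeq start, with the E2F-type letters in capitals. Pole, Brca1, Rrm1, Mcm10 and Mcm4 are not among the 18 members with these letters, and the match of Clspn lies after its start. Dnmt1, Gins3, Rfc3 and Uhrf1 have upstream matches that are not shown. The windows shown are a choice, of Mcm ring members and of Cdc6, Pola1 and Orc1. Each runs 5′ to 3′ on the gene's own strand.
Mcm7: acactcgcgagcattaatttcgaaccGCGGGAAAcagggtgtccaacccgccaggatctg
Cdc6: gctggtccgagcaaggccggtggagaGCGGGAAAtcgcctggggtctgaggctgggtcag
Pola1: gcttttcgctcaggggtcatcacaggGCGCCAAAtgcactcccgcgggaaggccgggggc
Orc1: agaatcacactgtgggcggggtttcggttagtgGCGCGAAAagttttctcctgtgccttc
Mcm6: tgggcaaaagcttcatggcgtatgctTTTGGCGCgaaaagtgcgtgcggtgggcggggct
Mcm6: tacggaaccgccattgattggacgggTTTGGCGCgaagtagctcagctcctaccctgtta
Mcm5: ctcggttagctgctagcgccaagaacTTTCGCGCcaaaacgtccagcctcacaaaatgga
The Mcm7 window is chr5:138172015-138172074 on the minus strand, and its match begins 165 bases before the start. Cdc6 is shown at chr11:98907987-98908046 on the plus strand, and Pola1 at chrX:93632260-93632319 on the minus strand. The Orc1 window is chr4:108579394-108579453 on the plus strand, with its match 27 bases before the start. Mcm6 has one match 110 bases and another 47 bases before its start, in the windows chr1:128359782-128359841 on the minus strand and chr1:128359719-128359778 on the minus strand. The Mcm5 window is chr8:75109330-75109389 on the plus strand. All distances are from the RefSeq start, which can differ from the gene start in GENCODE M21. In GENCODE M21, Mcm7 begins at 138172422 on the minus strand, and Cdc6 and Orc1 begin at 98907801 and 108579423 on the plus strand. By those positions the matches shown for Mcm7, Cdc6 and Orc1 lie within the gene. Matches are letters, not measured binding. At 12 h, 11 of the 18 tested members with these letters fell on the mean of both lines (median -0.61), as did 15 of the 25 tested members matched to promoters without them (median -0.77). From 12 h to 24 h, 3 of those 18 rose (median 0.43), against 14 of those 25 (median 0.59).

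How the deposited counts were made bears on which members can be compared. The length the authors list for each gene equals the sum of the lengths of all its annotated transcripts in GENCODE M21 for 98.6% of the 55141 genes with a model, and for all 52 members. Among the 20965 genes with more than 1 transcript it equals that sum in 97.4% and the length of the merged exons in 0.105%. The sources used here do not give how reads in exons shared by several transcripts were counted. Across the 52 members, the count over all libraries went with the share of exon bases that belong to 1 transcript (Spearman rho 0.73, a description over genes from the same libraries). The rho with the length of the merged exons was 0.23. Fen1, the flap endonuclease that trims Okazaki fragments, has the lowest such share, 5.37%, and 0 counts, which at 3 counts allows up to 0.76 CPM of counted reads in the smallest TMM-scaled library and, with the counting of shared exons not given, does not limit its RNA. It also shares 84.2% of its exon bases with genes on the other strand. The next lowest shares belong to Mcm3 (8.56%, 405 counts), Ccne2 (11.2%, 69 counts), Gins2 (11.4%, 229 counts) and Cdc6 (12.7%, 264 counts). For Bak1 the share is 14.0%. The tests below compare each gene with itself between libraries. Among the 25 tested members with at least 50% of their exon bases in 1 transcript, 19 fell at 12 h on the mean of both lines (median -0.71), against 12 of the other 25 (median -0.63). From 12 h to 24 h the split was wider, with 17 rising among the former (median 0.77) and 4 among the latter (median 0.50), and in the KD line 16 and 1.

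**Figure D2:**
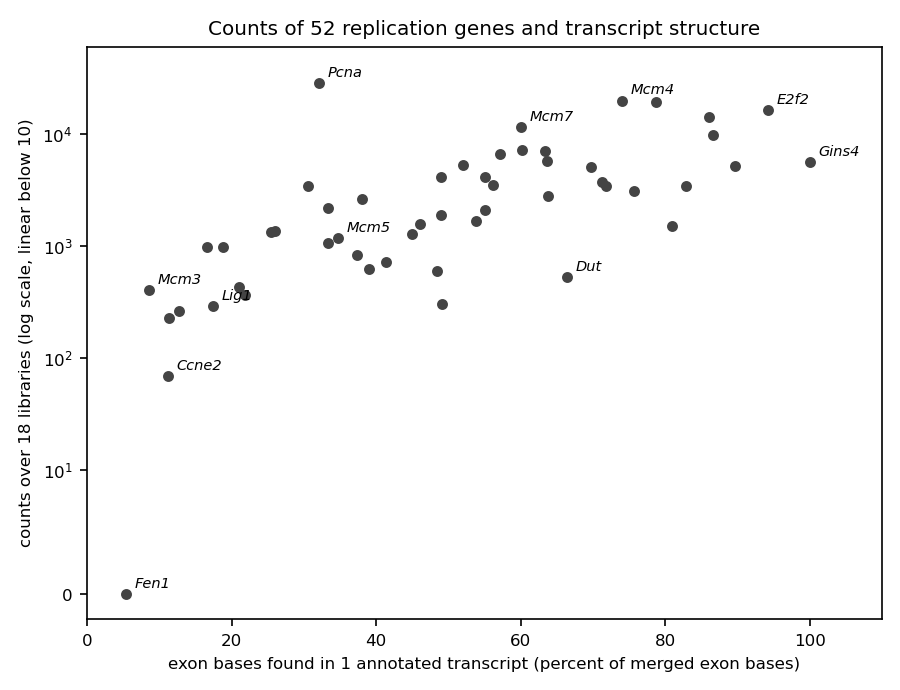
Counts of each of the 52 members summed over the 18 libraries (vertical, log scale that is linear below 10) against the percent of its merged exon bases found in 1 annotated transcript (horizontal), 1 point a gene. Members with low shares have few counts, from 0 for Fen1 at 5.37% to 16354 for E2f2 at 94.2%, and Pcna with 28738 counts at 32.1% lies above the others of like share.

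Among the 10 licensing genes, which mark and load origins, 5 fell at 12 h on the mean of both lines: Mcm2, Mcm4, Mcm5, Mcm6 and Mcm7, all of them parts of the helicase ring. Mcm7 (ENSMUSG00000029730, chr5:138164583-138172422) moved furthest among them. It stood at 189.9, 128 and 135 CPM in the NC controls, 97.03, 77.8 and 82.6 after 12 h and 150.4, 104 and 153 after 24 h. KD values were 197, 145 and 204 CPM in the controls, 79.1, 42.7 and 52.8 after 12 h and 173, 132 and 141 after 24 h. All 12 h libraries lay below all control libraries of their line. The log2 change at 12 h was -0.81 (SE 0.22, edgeR adjusted p = 0.0146) in the NC line and -1.65 (SE 0.22, edgeR adjusted p = 1.08e-05) in the KD line. Of the exon bases of Mcm7, 12.6% are shared with other genes, most of them on the other strand. Mcm4, another ring subunit, stood at 206, 173 and 189 CPM in the NC controls, 163, 147 and 177 after 12 h and 222, 223 and 294 after 24 h. KD values were 296, 253 and 302 CPM in the controls, 164, 139 and 138 after 12 h and 312, 273 and 255 after 24 h. The groups overlapped between NC control and NC 12 h, whereas every KD library at 12 h lay below every KD control, and the log2 change at 12 h was -0.22 (SE 0.15, edgeR adjusted p = 0.414) in the NC line and -0.95 (SE 0.15, edgeR adjusted p = 9.62e-05) in the KD line. Mcm2 was measured at 317, 193 and 231 CPM in the NC controls, 209, 143 and 188 after 12 h and 281, 198 and 249 after 24 h. KD values were 277, 195 and 246 CPM in the controls, 165, 111 and 135 after 12 h and 283, 215 and 222 after 24 h. Its libraries numbered 2 were the lowest of each group, and on the mean of both lines it fell at 12 h, with a log2 change of -0.63 (SE 0.15, edgeR adjusted p = 0.00234). Mcm5 and Mcm6 fell on that mean, with log2 changes of -0.60 (SE 0.20) and -0.95 (SE 0.25).

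Cdc6, the ATPase that brings the ring to origins, differed most between the untreated lines. It stood at 1.67, 1.98 and 1.23 CPM in the NC controls, 3.602, 2.34 and 3.17 after 12 h and 2.79, 4.14 and 1.66 after 24 h. KD values were 5.34, 4.88 and 6.87 CPM in the controls, 1.51, 2.03 and 1.47 after 12 h and 2.102, 3.35 and 1.91 after 24 h. The KD controls were above every other library of either line, and the NC controls lay below every NC library at 12 h. These levels rest on few reads, 264 counts over all libraries. The KD controls were higher than the NC controls by 1.78 (SE 0.39, edgeR adjusted p = 0.0142). Cdc6 then fell in the KD line at 12 h, with a log2 change of -1.74 (SE 0.39, edgeR adjusted p = 0.00309). At 24 h it was lower than in the KD controls, with a log2 change of -1.20 (SE 0.38, edgeR adjusted p = 0.046). The call at 24 h was kept in 3 of 5 alternative fits and in 1 of 6 fits that left out 1 library. In the NC line the change at 12 h was 0.87 (SE 0.41, edgeR adjusted p = 0.199). The difference between the changes of the lines at 12 h, the interaction, was -2.61 (SE 0.57, edgeR adjusted p = 0.0952) and did not pass the threshold. Orc1, the largest subunit of the origin recognition complex, changed at 12 h on the mean of both lines by 0.31 (SE 0.14, edgeR adjusted p = 0.115) and was higher at 24 h than in the controls in the NC line, by 0.73 (SE 0.20, edgeR adjusted p = 0.0227). Cdt1, Orc6 and Mcm3 passed the threshold in none of the comparisons between times.

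The helicase-activating genes fell together, 5 of 6 at 12 h on the mean of both lines (Cdc45, Gins1, Gins3, Gins4 and Mcm10), and Gins2 was the exception with 229 counts in all. Mcm10, which helps to switch on the loaded helicase, stood at 20.03, 23.1 and 23.9 CPM in the NC controls, 12.6, 14.5 and 14.1 after 12 h and 32.9, 27.1 and 32.04 after 24 h. KD values were 30.1, 32.5 and 30.6 CPM in the controls, 13.8, 11.6 and 14.1 after 12 h and 27.5, 23.02 and 26.9 after 24 h. In both lines the 12 h libraries lay below all others, and the NC libraries at 24 h lay above the NC controls. The log2 change at 12 h was -0.70 (SE 0.18, edgeR adjusted p = 0.0097) in the NC line and -1.24 (SE 0.18, edgeR adjusted p = 2.11e-05) in the KD line, and from 12 h to 24 h it was 1.06 (SE 0.12, edgeR adjusted p = 3.79e-06) on the mean of both lines. Gins1, a subunit of the GINS complex, stood at 39.2, 24.4 and 29.8 CPM in the NC controls, 27.7, 17.2 and 24.6 after 12 h and 42.3, 36.3 and 48.6 after 24 h. KD values were 37.1, 29.6 and 39.5 CPM in the controls, 14.3, 18.1 and 21.2 after 12 h and 39.6, 30.1 and 39.8 after 24 h. It overlapped between control and 12 h in the NC line and not in the KD line, and the change at 12 h was -0.43 (SE 0.22, edgeR adjusted p = 0.251) and -0.98 (SE 0.22, edgeR adjusted p = 0.00333) in turn. Cdc45, the third part of the active helicase, was lower, with a log2 change of -1.08 (SE 0.32, edgeR adjusted p = 0.0285) at 12 h in the NC line, where it stood at 6.26, 9.401 and 11.8 CPM in the NC controls, 3.15, 5.93 and 3.77 after 12 h and 9.12, 10.4 and 8.65 after 24 h. Its KD libraries held 8.97, 4.12 and 8.11 CPM in the controls, 3.24, 3.697 and 3.99 after 12 h and 8.58, 7.32 and 6.43 after 24 h, and 1 KD control lay close to the 12 h values. Gins4 stood at 94.9, 59.2 and 56.8 CPM in the NC controls, 62.6, 50.7 and 54.3 after 12 h and 79.5, 62.1 and 91.1 after 24 h. KD values were 80.05, 58.7 and 68.5 CPM in the controls, 50.1, 40.5 and 29.8 after 12 h and 70.2, 60.9 and 43.1 after 24 h, with overlap in the NC line. The mean of both lines fell at 12 h, with a log2 change of -0.56 (SE 0.16, edgeR adjusted p = 0.0134).

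Polymerases and primase held the member with the smallest adjusted p at 12 h. Of these 9 genes, 7 fell at 12 h on the mean of both lines, and Pola2 and Pold2 did not pass the test. Pole (ENSMUSG00000007080, chr5:110286306-110337474), the catalytic subunit of the leading-strand polymerase epsilon, stood at 79.9, 63.7 and 67.4 CPM in the NC controls, 38.7, 31.3 and 38.8 after 12 h and 81.3, 62.1 and 76.4 after 24 h. KD values were 84.7, 68.3 and 68.5 CPM in the controls, 31.1, 25.7 and 25.6 after 12 h and 79.5, 63.4 and 64.1 after 24 h. The 12 h libraries were well apart from both other times in each line, and control and 24 h libraries overlapped. The log2 change was -0.96 (SE 0.17, edgeR adjusted p = 0.00045) in the NC line and -1.43 (SE 0.17, edgeR adjusted p = 3.02e-06) in the KD line at 12 h, and -0.02 (SE 0.12, edgeR adjusted p = 0.948) at 24 h on the mean of both lines. Pola1, the catalytic subunit of polymerase alpha, stood at 105, 119.6 and 104 CPM in the NC controls, 67.1, 75.98 and 79.5 after 12 h and 105, 141 and 126 after 24 h. KD values were 124, 172 and 135 CPM in the controls, 67.2, 74.9 and 50.9 after 12 h and 114, 153 and 106 after 24 h. Its 12 h values lay below all others of their line, and the change at 12 h was -0.56 (SE 0.18, edgeR adjusted p = 0.0468) in the NC line and -1.16 (SE 0.18, edgeR adjusted p = 7.67e-05) in the KD line. The NC call was lost without any 1 of the 6 libraries.

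The primase subunits, which make the RNA primers, fell in both lines. The NC calls at 12 h were kept in 3 of 6 fits that left out 1 library for Prim1, and in 1 of 6 for Prim2. Prim1, the catalytic subunit, stood at 14.6, 21.6 and 31.7 CPM in the NC controls, 9.23, 7.72 and 14.5 after 12 h and 19.8, 17.9 and 29.6 after 24 h. KD values were 28.8, 25.003 and 32.7 CPM in the controls, 11.7, 14.05 and 18.1 after 12 h and 22.6, 24.1 and 28.3 after 24 h. Its NC controls spread more than those of most members, and the lowest of them lay just above the highest NC value at 12 h. The change at 12 h was -1.11 (SE 0.28, edgeR adjusted p = 0.0103) in the NC line and -0.98 (SE 0.27, edgeR adjusted p = 0.0158) in the KD line. Prim2, the large subunit, stood at 68.03, 59.2 and 55.5 CPM in the NC controls, 36.9, 47.1 and 35.9 after 12 h and 70.9, 71.7 and 80.6 after 24 h. KD values were 67.03, 69.1 and 57.8 CPM in the controls, 36.9, 40.8 and 22.5 after 12 h and 70.8, 75.1 and 52.9 after 24 h. It fell at 12 h, with log2 changes of -0.61 (SE 0.20, edgeR adjusted p = 0.0467) and -0.95 (SE 0.20, edgeR adjusted p = 0.0015) in turn. Pole2, Pold1 and Pold3, further subunits of polymerases epsilon and delta, fell on the mean of both lines, with log2 changes of -0.77 (SE 0.21), -0.72 (SE 0.16) and -0.41 (SE 0.13).

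Pcna, the sliding clamp that tethers polymerases to DNA and the member with the most counts, was 1 of 8 members with estimates above 0 at 12 h in the NC line. Its gene (ENSMUSG00000027342) lies at chr2:132249162-132253314. It stood at 272, 210.1 and 213 CPM in the NC controls, 273, 246 and 285 after 12 h and 323, 308 and 418 after 24 h. KD values were 356, 328 and 398 CPM in the controls, 265, 244 and 249.7 after 12 h and 432, 428 and 462 after 24 h. The NC libraries at 12 h overlapped the NC controls, while in the KD line the 12 h libraries lay below all KD controls, and the 24 h libraries were the highest of either line. The log2 change at 12 h was 0.21 (SE 0.15, edgeR adjusted p = 0.442) in the NC line and -0.51 (SE 0.15, edgeR adjusted p = 0.0217) in the KD line, and the interaction was -0.72 (SE 0.21, edgeR adjusted p = 0.391). At 24 h the change on the mean of both lines was 0.44 (SE 0.11, edgeR adjusted p = 0.00467). Among the clamp-loader genes, Rfc1, Rfc3 and Rfc5 fell at 12 h on the mean of both lines, Rfc2 and Rfc4 did not pass the test, and the counts of Rfc1, Rfc3, Rfc4 and Rfc5 over all libraries were low, from 303 to 1074. Rfc5 stood at 15.7, 11.7 and 17.6 CPM in the NC controls, 14.9, 5.93 and 10.3 after 12 h and 13.7, 12.2 and 10.1 after 24 h. KD values were 12.6, 14.03 and 21.6 CPM in the controls, 8.64, 5.91 and 8.196 after 12 h and 10.7, 9.21 and 10.96 after 24 h. It fell, with a log2 change of -0.81 (SE 0.21, edgeR adjusted p = 0.00496) on that mean. Rfc1, the large subunit of the loader, held 3.34, 7.26 and 3.06 CPM in the NC controls, 1.13, 1.62 and 2.77 after 12 h and 2.79, 3.77 and 4.23 after 24 h. KD values were 4.91, 6.403 and 4.99 CPM in the controls, 3.67, 4.44 and 3.15 after 12 h and 3.85, 5.23 and 4.05 after 24 h. It fell at 12 h in the NC line, with a log2 change of -1.31 (SE 0.40, edgeR adjusted p = 0.0333), on 366 counts in all, and no NC library at 12 h reached the lowest NC control. Rfc3, a small subunit, held 2.71, 4.45 and 5.11 CPM in the NC controls, 1.35, 1.08 and 2.77 after 12 h and 2.79, 2.45 and 4.97 after 24 h. KD values were 4.696, 5.18 and 3.95 CPM in the controls, 1.51, 2.59 and 3.15 after 12 h and 3.33, 2.09 and 5.002 after 24 h. It fell on the mean of both lines, with a log2 change of -1.08 (SE 0.31, edgeR adjusted p = 0.0119), on 303 counts in all, and its groups overlapped in the NC line.

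Subunits of RPA, the protein that coats single-stranded DNA at the fork, differed from each other. Rpa2 stood at 69.7, 59.2 and 67.6 CPM in the NC controls, 45.02, 38.6 and 48.8 after 12 h and 52.7, 42.7 and 58.7 after 24 h. KD values were 78.98, 55.3 and 87.4 CPM in the controls, 37.8, 30.3 and 41.6 after 12 h and 70.9, 53.6 and 70.03 after 24 h. All 12 h libraries lay below the controls of their line, with log2 changes of -0.57 (SE 0.19, edgeR adjusted p = 0.0545) in the NC line and -1.01 (SE 0.19, edgeR adjusted p = 0.000589) in the KD line. Rpa3, the smallest subunit, stood at 16.1, 15.2 and 20.8 CPM in the NC controls, 11.7, 9.34 and 19.2 after 12 h and 19.2, 12.2 and 34.98 after 24 h. KD values were 14.5, 20.9 and 23.3 CPM in the controls, 8.64, 9.98 and 6.305 after 12 h and 18.4, 16.5 and 22.2 after 24 h. It fell in the KD line at 12 h, with a log2 change of -1.23 (SE 0.33, edgeR adjusted p = 0.0116). Rpa1, the large subunit, stood at 3.34, 7.75 and 3.68 CPM in the NC controls, 7.88, 6.11 and 6.34 after 12 h and 8.105, 5.84 and 4.97 after 24 h. KD values were 6.19, 8.995 and 4.37 CPM in the controls, 8.21, 9.06 and 3.15 after 12 h and 7.36, 8.16 and 9.29 after 24 h. Its groups overlapped throughout, and its change at 12 h on the mean of both lines was 0.24 (SE 0.26, edgeR adjusted p = 0.57). Lig1, the ligase that seals Okazaki fragments, had 290 counts in all and stood at 2.09, 4.62 and 3.27 CPM in the NC controls, 2.25, 1.44 and 1.39 after 12 h and 4.81, 3.58 and 1.66 after 24 h. KD values were 4.06, 4.12 and 3.33 CPM in the controls, 2.81, 4.07 and 2.31 after 12 h and 4.73, 3.35 and 3.097 after 24 h. Its change on the mean of both lines at 12 h was -0.66 (SE 0.30, edgeR adjusted p = 0.115), which did not pass the threshold.

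All 5 genes of nucleotide supply fell at 12 h on the mean of both lines, and 4 of them rose from 12 h to 24 h. Rrm1, the large subunit of ribonucleotide reductase, stood at 167, 158 and 176 CPM in the NC controls, 136, 112 and 124 after 12 h and 182, 186 and 208 after 24 h. KD values were 180.4, 179 and 188 CPM in the controls, 87.05, 79.3 and 87.4 after 12 h and 179.9, 175 and 192 after 24 h. Its replicates lay close together, every 12 h library was below all others of its line, and the KD libraries at 12 h were below the NC libraries at 12 h. The log2 change at 12 h was -0.43 (SE 0.13, edgeR adjusted p = 0.0359) in the NC line and -1.11 (SE 0.13, edgeR adjusted p = 2.57e-06) in the KD line. Rrm2 (chr12:24708241-24714146), the small subunit, is known for its rise in S phase. It stood at 42.2, 49.5 and 49.01 CPM in the NC controls, 48.9, 39.9 and 53.5 after 12 h and 64.1, 80.02 and 102 after 24 h. KD values were 67.03, 66.8 and 67.2 CPM in the controls, 36.9, 31.1 and 43.1 after 12 h and 108, 98.1 and 98.1 after 24 h. The NC libraries at 12 h overlapped their controls, the KD libraries at 12 h lay below theirs, and the 24 h libraries were above all controls of their line. The change at 12 h was 0.01 (SE 0.18, edgeR adjusted p = 0.978) in the NC line and -0.86 (SE 0.18, edgeR adjusted p = 0.00139) in the KD line, and at 24 h it was 0.81 (SE 0.18, edgeR adjusted p = 0.00461) and 0.60 (SE 0.17, edgeR adjusted p = 0.0303) in turn. The KD call at 24 h was lost without any 1 of the 6 libraries. The interaction at 12 h was -0.87 (SE 0.25, edgeR adjusted p = 0.378).

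Tk1, the thymidine kinase of the salvage pathway, was the one member called lower at 24 h on the mean of both lines, with a log2 change of -0.37 (SE 0.13, edgeR adjusted p = 0.0461). The call was lost without a filter on low counts and without any 1 of 6 of the 12 libraries: NC control 1, NC 24 h 2 and 3, KD control 1 and 3 and KD 24 h 3. It stood at 53.003, 46.5 and 44.1 CPM in the NC controls, 32.6, 31.3 and 27.7 after 12 h and 45.3, 40.9 and 37.6 after 24 h. KD values were 65.3, 47.7 and 63.2 CPM in the controls, 32.4, 21.6 and 23.1 after 12 h and 44.5, 41.8 and 35.3 after 24 h. The 12 h values were the lowest of each line and the 24 h values lay between them and most of the controls. At 12 h the change was -0.65 (SE 0.18, edgeR adjusted p = 0.021) in the NC line and -1.19 (SE 0.19, edgeR adjusted p = 6.12e-05) in the KD line. Dut, which removes dUTP, stood at 6.47, 8.25 and 8.78 CPM in the NC controls, 4.05, 3.95 and 2.97 after 12 h and 6.33, 2.64 and 5.89 after 24 h. KD values were 7.26, 9.3 and 8.32 CPM in the controls, 3.46, 3.697 and 3.36 after 12 h and 7.53, 4.603 and 6.19 after 24 h. It fell at 12 h, with log2 changes of -1.10 (SE 0.32, edgeR adjusted p = 0.0236) and -1.24 (SE 0.32, edgeR adjusted p = 0.00816) in turn, and its change from 12 h to 24 h was 0.61 (SE 0.23, edgeR adjusted p = 0.114). Tyms, which makes dTMP, fell on the mean of both lines at 12 h, with a log2 change of -0.47 (SE 0.16, edgeR adjusted p = 0.0283).

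None of the 3 tested G1/S regulators fell at 12 h on the mean of both lines, and Ccne1 rose at 24 h. Ccne1, the cyclin that drives entry into S phase with Cdk2, stood at 39.2, 28.4 and 28.4 CPM in the NC controls, 48.4, 40.2 and 47.96 after 12 h and 65.1, 50.8 and 70.5 after 24 h. KD values were 34.6, 29.6 and 42.03 CPM in the controls, 33.7, 31.2 and 31.3 after 12 h and 71.6, 70.5 and 63.6 after 24 h. Every library at 24 h was above every control and every 12 h library of its line. The log2 change at 24 h was 0.96 (SE 0.18, edgeR adjusted p = 0.00124) in the NC line and 0.96 (SE 0.18, edgeR adjusted p = 0.000842) in the KD line, and at 12 h it was 0.51 (SE 0.18, edgeR adjusted p = 0.0711) and -0.14 (SE 0.18, edgeR adjusted p = 0.695). E2f2, a transcriptional activator of the E2F family, stood at 189, 121 and 165 CPM in the NC controls, 225, 154 and 224 after 12 h and 199, 120.3 and 185 after 24 h. KD values were 219, 137 and 202 CPM in the controls, 213, 145 and 194 after 12 h and 213, 164 and 212 after 24 h. Its library numbered 2 was the lowest of each group, the groups overlapped throughout, and the change at 12 h on the mean of both lines was 0.16 (SE 0.16, edgeR adjusted p = 0.503). E2f1, its better-known relative, stood at 16.5, 14.5 and 14.7 CPM in the NC controls, 13.1, 11.7 and 13.1 after 12 h and 17.98, 13.7 and 15.7 after 24 h. KD values were 19.6, 15.7 and 19.6 CPM in the controls, 13.2, 9.61 and 19.5 after 12 h and 16.6, 8.37 and 14.5 after 24 h. It changed by -0.32 (SE 0.18, edgeR adjusted p = 0.214) on that mean.

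**Figure D3:**
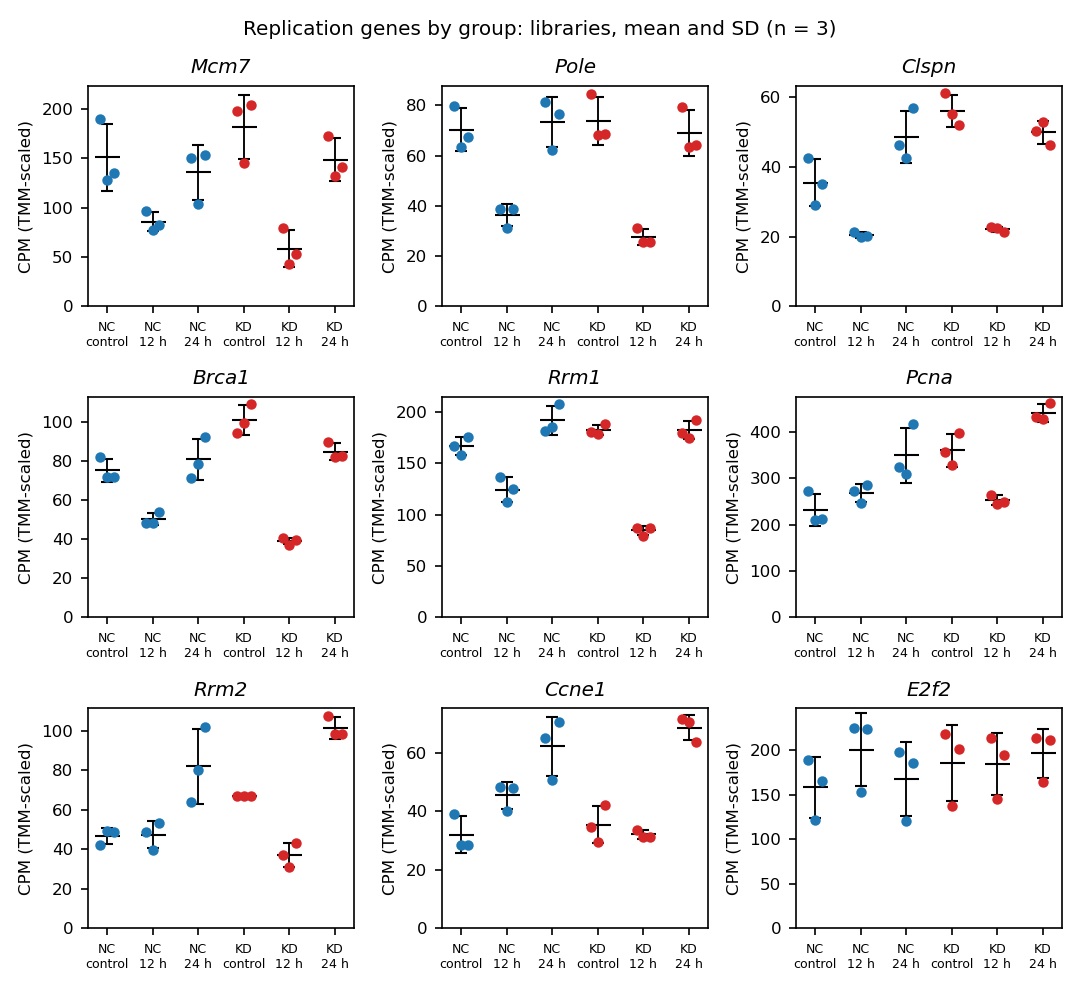
CPM of 9 members in the 6 groups, with 1 point a library (blue for the NC line, red for the KD line), a bar for the mean and whiskers for the SD (n = 3). Mcm7, Pole, Clspn, Brca1 and Rrm1 are lowest at 12 h in both lines, Pcna and Rrm2 at 12 h lie below the controls in the KD line and overlap them in the NC line, Ccne1 is highest at 24 h, and the groups of E2f2 overlap.

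Of the 4 genes that copy chromatin and its methylation, Uhrf1, which recognises hemimethylated DNA behind the fork, fell at 12 h on the mean of both lines, with a log2 change of -0.56 (SE 0.20, edgeR adjusted p = 0.0448). It stood at 10.6, 10.6 and 14.1 CPM in the NC controls, 11.03, 5.75 and 9.51 after 12 h and 11.1, 10.2 and 13.6 after 24 h. KD values were 17.5, 9.91 and 13.7 CPM in the controls, 10.2, 7.95 and 7.36 after 12 h and 10.5, 8.37 and 14.8 after 24 h. Control and 12 h libraries overlapped in both lines. Dnmt1, the maintenance methyltransferase, stood at 11.3, 10.7 and 11.6 CPM in the NC controls, 8.33, 8.26 and 9.71 after 12 h and 15.96, 10.4 and 8.47 after 24 h. KD values were 13.2, 10.98 and 11.9 CPM in the controls, 12.7, 8.87 and 10.1 after 12 h and 10.7, 10.5 and 13.6 after 24 h. It changed by -0.27 (SE 0.17, edgeR adjusted p = 0.286) at 12 h on the mean of both lines. Chaf1a, the large subunit of the histone chaperone CAF-1, stood at 47.8, 48.98 and 70.4 CPM in the NC controls, 40.7, 24.4 and 45.8 after 12 h and 50.7, 37.1 and 35.9 after 24 h. KD values were 62.8, 36.4 and 52.2 CPM in the controls, 38.9, 28.8 and 51.3 after 12 h and 48.7, 40.6 and 71.7 after 24 h. It changed by -0.47 (SE 0.19, edgeR adjusted p = 0.0779), and 52.5% of its exon bases are shared with other genes. Chaf1b, another CAF-1 subunit, stood at 18.6, 14.3 and 13.1 CPM in the NC controls, 18.7, 13.7 and 13.5 after 12 h and 23.3, 19.6 and 19.1 after 24 h. KD values were 21.6, 17.5 and 19.8 CPM in the controls, 15.1, 17.6 and 16.6 after 12 h and 24.3, 21.3 and 25.7 after 24 h. It changed at 12 h by -0.13 (SE 0.14, edgeR adjusted p = 0.569) and rose from 12 h to 24 h by 0.49 (SE 0.14, edgeR adjusted p = 0.032).

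All 3 genes of the fork checkpoint and repair fell at 12 h on the mean of both lines. Clspn, the adaptor through which the kinase Atr signals to Chk1 at stalled forks, stood at 42.4, 29.03 and 34.9 CPM in the NC controls, 21.4, 19.8 and 20.2 after 12 h and 46.3, 42.6 and 56.9 after 24 h. KD values were 61.05, 55.04 and 52.01 CPM in the controls, 22.7, 22.4 and 21.2 after 12 h and 50.3, 52.9 and 46.2 after 24 h. The 12 h values of the lines were alike, between 19.8 and 22.7 CPM, while the KD controls were all above the NC controls. The change at 12 h was -0.79 (SE 0.17, edgeR adjusted p = 0.00317) in the NC line and -1.34 (SE 0.17, edgeR adjusted p = 5.53e-06) in the KD line. Brca1 (chr11:101488764-101551955), which protects and repairs forks by recombination, stood at 82.2, 71.9 and 71.9 CPM in the NC controls, 48.4, 48.5 and 54.1 after 12 h and 71.4, 78.7 and 92.4 after 24 h. KD values were 94.3, 99.4 and 109 CPM in the controls, 40.4, 37.2 and 39.5 after 12 h and 89.7, 82.2 and 82.7 after 24 h. Here the KD libraries were the higher ones in the controls and the lower ones at 12 h, with no overlap at either time. The change at 12 h was -0.58 (SE 0.15, edgeR adjusted p = 0.00912) in the NC line and -1.37 (SE 0.15, edgeR adjusted p = 5.28e-07) in the KD line. Blm, the helicase that resolves recombination structures, stood at 14.4, 13.03 and 16.5 CPM in the NC controls, 18.01, 11.3 and 6.74 after 12 h and 20.5, 18.1 and 12.9 after 24 h. KD values were 15.8, 23.5 and 19.97 CPM in the controls, 8.21, 8.13 and 8.62 after 12 h and 9.28, 11.9 and 15.01 after 24 h. It fell in the KD line, with a log2 change of -1.25 (SE 0.29, edgeR adjusted p = 0.00356), and the change in the NC line was -0.29 (SE 0.28, edgeR adjusted p = 0.604).

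Within the NC line alone, 13 members fell at 12 h and none rose, against 5.55% of all tested genes falling and 6.69% rising. They were Mcm7, Cdc45, Mcm10, Pola1, Prim1, Prim2, Pole, Rfc1, Rrm1, Tk1, Dut, Clspn and Brca1. The calls of Pole, Clspn and Brca1 were kept in all 6 fits that left out 1 library. Those of Mcm7 and Mcm10 were kept in 5 and that of Tk1 in 4. Prim1, Rfc1 and Rrm1 were kept in 3, Cdc45 and Dut in 2, Prim2 in 1 and Pola1 in 0. All 3 NC libraries at 12 h lay below all 3 NC controls for 20 members and above them for 3, as they did for 13% and 13.5% of all tested genes. With the library number as a block, which the libraries' shared deviations allow here, the count was 24, of which 21 fell. The block also raised the count over all 15996 tested genes, from 1958 to 3948. For the other block counts the share over all tested genes is not given. It was 7 without the NC control library 3, 6 without the NC 12 h library 1 and 8 without the NC 12 h library 3. At 24 h against the controls 4 members were higher, Orc1, Pcna, Rrm2 and Ccne1, close to the background of 4.66%, and none was lower (background 2.91%). The count with the block was 10. It fell to 2 without the NC control library 2, 2 without the NC control library 3, 1 without the NC 24 h library 3, and 2 without all 6 libraries numbered 2. From 12 h to 24 h 11 members rose and none fell, against 1.63% of all tested genes rising and 1.13% falling, and the count with the block was 22. Without the NC 12 h libraries 1, 2 or 3 it was 5, 7 and 7, without the NC 24 h library 3 it was 4, and without all 6 libraries numbered 2 it was 4.

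Within the KD line, 26 members fell at 12 h and none rose, against 8.06% of all tested genes falling and 7.93% rising. The median change was -0.86. All 3 KD libraries at 12 h lay below all 3 KD controls for 37 members and above them for 0, as they did for 15.7% and 15.1% of all tested genes. The smallest adjusted p-values at 12 h were those of Brca1, Rrm1, Pole, Clspn and Mcm7. At 24 h against the controls the count was 4, with Rrm2 and Ccne1 higher (background 5.5%) and Cdc6 and Rfc2 lower (background 4.09%). Rfc2, a clamp-loader subunit, changed by -0.53 (SE 0.17, edgeR adjusted p = 0.0437), a call kept in 1 of 6 fits that left out 1 library. Under total-count scaling the split was 1 higher and 3 lower. With the block this count was 8, without a filter on low counts it was 1, and it was 1 or 2 without any 1 of the 6 libraries and 1 without all 6 libraries numbered 2. From 12 h to 24 h 17 members rose and none fell, against 2.81% of all tested genes rising and 1.46% falling, and the count with the block was 29. Of the members that fell at 12 h, 11 fell in both lines, which is 84.6% of the NC list and 42.3% of the KD list. The comparisons of 12 h and of 24 h with the controls share the control libraries of their line, and the comparisons of 12 h with the controls and of 24 h with 12 h share the 12 h libraries.

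**Figure D4:**
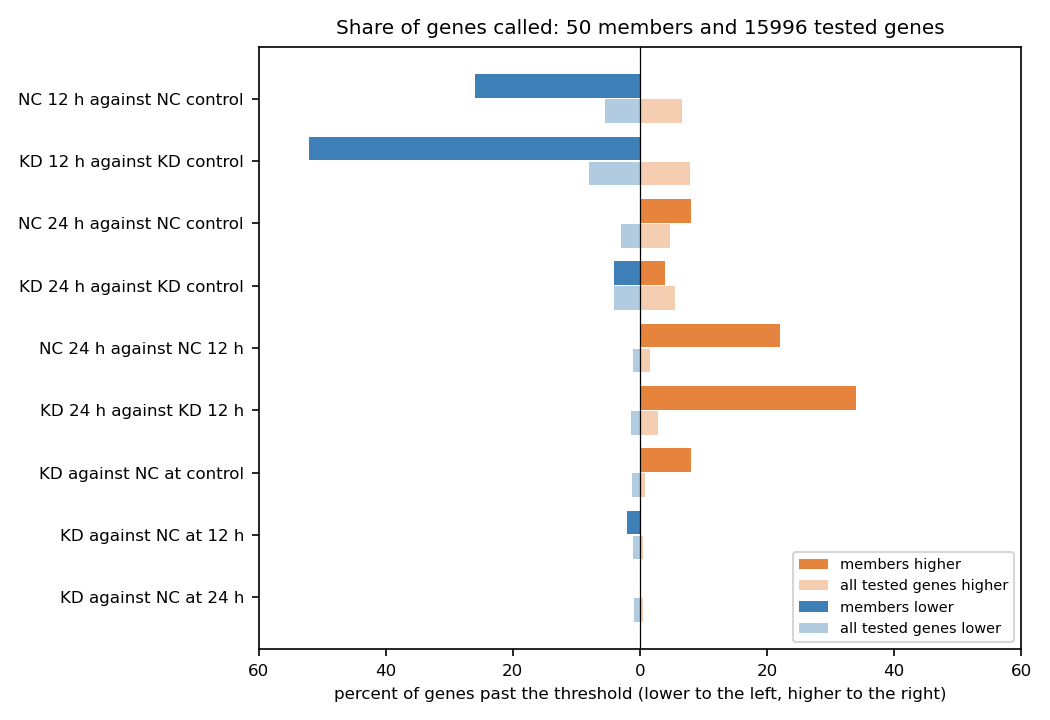
Percent of the 50 tested members (solid bars) and of all tested genes (pale bars) past an adjusted p of 0.05 in 9 comparisons, lower to the left and higher to the right. Members fall at 12 h in both lines, 26% in NC and 52% in KD, and rise from 12 h to 24 h, while at 24 h against the controls their shares lie near those of all genes.

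The lines were then compared at each time. In the controls, 4 members were higher in the KD libraries and none lower, against 0.763% of all tested genes higher and 1.3% lower. Besides Cdc6 these were Pcna by 0.64 (SE 0.15, edgeR adjusted p = 0.0234), Clspn by 0.66 (SE 0.17, edgeR adjusted p = 0.0369) and Mcm4 by 0.58 (SE 0.15, edgeR adjusted p = 0.0446). The median of the members was 0.24, against 0.00 for all tested genes. Estimates were above 0 for 41 of 50 members, and the share over all tested genes is not given. This count depended on single libraries. It was 1 without the NC control library 2, 0 without the NC control library 3, 1 without the KD control library 1, 0 without the KD control library 3, 2 without a filter on low counts and 0 without all 6 libraries numbered 2. At 12 h 1 member, Rrm1, was lower in the KD libraries, with a log2 change of -0.55 (SE 0.13, edgeR adjusted p = 0.0345). None was higher, and of all tested genes 1.1% were lower and 0.5% higher. With the block, 7 members were lower at 12 h (Mcm2, Mcm7, Gins4, Pole, Rrm1, Ccne1 and Brca1), and the count was 0 without any 1 of NC 12 h library 1, NC 12 h library 3 and the 3 KD libraries at 12 h, without a filter on low counts, and without all 6 libraries numbered 2. At 24 h edgeR called no member, 1 had an unadjusted p under 0.05 and DESeq2 called none, and the background was 0.469% higher and 0.925% lower. On the mean of all times 1 member, Pcna, was higher, by 0.30 (SE 0.09, edgeR adjusted p = 0.0324), and none was lower, against 4.01% of all tested genes higher and 5.98% lower. That count was 3 under total-count scaling and without the NC 24 h library 3, 2 without the NC control library 1, and 0 without all 6 libraries numbered 2. It was also 0 without any 1 of the NC control library 3, NC 12 h library 1, NC 24 h library 2, KD control libraries 1 and 3, KD 12 h libraries 1 and 3, and KD 24 h library 3.

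Whether the fall at 12 h differed between the lines was tested as an interaction. The estimate was below 0, a more negative or less positive change in the KD line, for 40 of 50 members. Its median was -0.41, against -0.01 for all tested genes. The median difference of KD from NC was 0.24 in the controls and -0.12 at 12 h, so higher KD controls also enter this estimate. In edgeR no member passed the threshold, against 0.075% of all tested genes, and 14 members had an unadjusted p under 0.05. The shares of all tested genes with estimates below 0 or with an unadjusted p under 0.05 are not given. These member counts are therefore a description only. DESeq2 called 3 members, Cdc6, Rrm1 and Brca1, for which edgeR gave -2.61 (SE 0.57, edgeR adjusted p = 0.0952), -0.68 (SE 0.19, edgeR adjusted p = 0.324) and -0.79 (SE 0.21, edgeR adjusted p = 0.253). With the library number as a block, edgeR called 9 members, all with estimates below 0: Cdc6, Mcm4, Mcm7, Pola1, Pola2, Pcna, Rrm1, Rrm2 and Brca1. In this comparison not every pair of libraries with the same number correlated over 0.1 (lowest 0.0703). The share of all tested genes called under the block is not given. For 24 h against the controls the interaction again passed for no member in edgeR or DESeq2, 5 had an unadjusted p under 0.05, and 0.0313% of all tested genes passed.

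**Figure D5:**
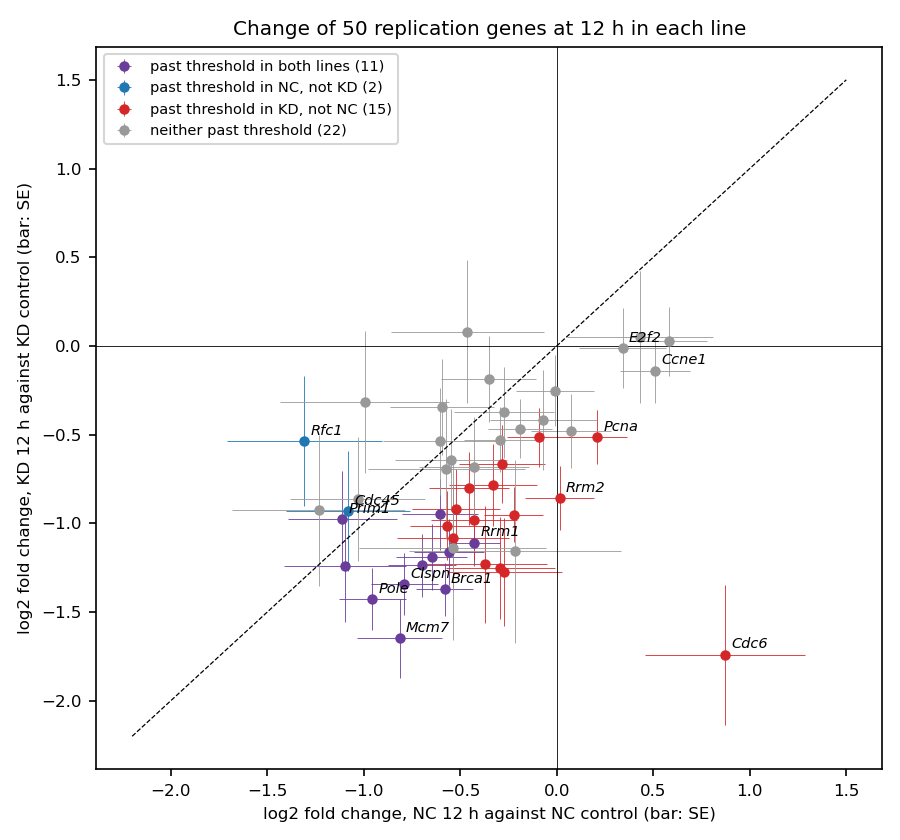
Log2 fold change at 12 h against the same line's controls for the 50 tested members, NC line on the horizontal axis and KD line on the vertical axis, with SE bars, coloured by which line's change passed an adjusted p of 0.05. The dashed line marks equal changes. Most points lie below it, 11 members passed in both lines, 2 in the NC line and not the KD line and 15 the other way round, a split that does not test the difference between lines, and Cdc6 stands apart at 0.87 and -1.74.

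Other genes of replication and of the cell cycle gave the surroundings of the set. Of 63 other replication genes 58 were tested, and at 12 h on the mean of both lines 25 fell and 3 rose (median -0.44), among them Bard1, the partner of Brca1 (-1.16). The 3 that rose were Orc2 (0.70), Rrm2b, the p53-regulated reductase subunit (0.58), and Mcm9 (0.51). All 20 mitosis genes fell at 12 h on that mean (median -1.33) and all 20 rose from 12 h to 24 h (median 1.30), for example Mki67, the proliferation marker (-1.60 and 1.41), and Top2a, which untangles chromosomes (-1.45 and 1.32). At 24 h against the controls 3 of these were lower. Of 13 tested genes of G1 control, 4 rose and 3 fell at 12 h, and 5 were higher and 2 lower at 24 h. Ccnd1, the cyclin of early G1, was higher at 24 h by 1.13 (SE 0.15, edgeR adjusted p = 8.91e-06), and Cdkn2c, an inhibitor of Cdk4 and Cdk6, was lower at 12 h, with a log2 change of -1.77 (SE 0.23, edgeR adjusted p = 3.5e-06). No difference between these lists and the members was tested.

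In all, 13 of the 50 tested members passed the threshold in none of the 9 comparisons between times: Cdt1, Chaf1a, Dnmt1, E2f1, E2f2, Gins2, Lig1, Mcm3, Orc6, Pola2, Pold2, Rfc4 and Rpa1. Of these, 11 have under 50% of their exon bases in 1 transcript, and the exceptions are E2f2 (94.2%) and Pola2 (60.1%).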

How the data were processed

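RNA of BV2 cells was sequenced in 18 libraries. Per the submitters' processing notes, reads were handled with bcl2fastq, HISAT2 2.2.0 and featureCounts on GRCm38, and DESeq2 is also named. The sources used here do not give how overlapping features and strand were counted. The deposited tables hold the authors' whole-number counts per gene and the authors' TPM. The deposited TPM values equal the counts divided by the listed gene length and scaled to a fixed total, within 4.89e-05.

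The counts were fitted with edgeR 4.0.16 (R 4.3.3, limma 3.58.1): TMM factors, filterByExpr with a minimum count of 10, 1 mean per group, a robust quasi-likelihood test over all 18 libraries, and Benjamini-Hochberg adjustment over 15996 genes, which held 99.6% of the counts. The threshold was an adjusted p of 0.05. The median biological coefficient of variation was 0.221. CPM are counts per 1000000 counts of the TMM-scaled library. Values per library are given for up to 4 members of each role with the lowest adjusted p between times and for each member called between lines; other members were named where a count was small. No value column was left unmapped. The members and the lists were chosen with earlier results of these data known.

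Libraries with the same number deviated together: in the 6 comparisons within a line and in KD against NC at 12 h every pair's correlation was over 0.1 (0.108 to 0.448), so a fit with the number as a block is given beside those counts where it moved them; in the other comparisons the lowest correlation was 0.0703. Block counts of some of those other comparisons are also given, although not every pair there correlated over 0.1. The pairing comes from these correlations and the shared numbers in the labels. Alternatives were relative log expression factors, total-count scaling, no filter, the block, DESeq2 1.42.0, leaving out each library and, added later, leaving out the 6 libraries numbered 2. Promoters are from RefSeq and gene positions from GENCODE M21.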

Additional observations from a re-analysis of the deposited data

How the results depend on the processing

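None of the 138 calls of single members reversed under RLE factors, total-count scaling, no filter, the replicate block, DESeq2, leaving out single libraries or leaving out the 6 libraries numbered 2, but counts in each direction moved. In NC at 12 h members were also called higher, 3 with the block, 1 with DESeq2 and 2 without the NC control library 1. The block gave 2 higher and 37 lower for 12 h on the mean of both lines, and 3 higher and 5 lower for KD at 24 h. Of these calls 138 were kept with RLE factors, 138 with the block, 137 with DESeq2, 134 with total-count scaling, 120 with no filter, 97 without the 6 libraries numbered 2, and 88 in every fit that left out 1 library, while 50 were lost in at least 1 such fit. Pola1 in NC at 12 h, Rrm2 in KD at 24 h and Rpa3 in KD 24 h against 12 h were lost in all 6. With the replicate block the counts were 24 for NC at 12 h, 10 for NC at 24 h, 22 for NC 24 h against 12 h, 8 for KD at 24 h, 29 for KD 24 h against 12 h, 12 for 24 h on the mean of both lines, 11 for KD against NC in the controls, 7 at 12 h, 1 at 24 h and 9 on the mean of times, and 9 for the interaction at 12 h. For NC at 12 h the block also raised the count over all tested genes, from 1958 to 3948. DESeq2 gave 3 for the interaction at 12 h. No filter gave 1 for KD at 24 h, 2 for KD against NC in the controls and 0 at 12 h. Total-count scaling gave 9 for 24 h on the mean of both lines and 3 for KD against NC on the mean of times. Under that scaling the share of higher genes among all genes called also moved, for example from 56.3% to 42.0% at 24 h on the mean of both lines, and the median of all genes shifted by less than 0.1. Without the 6 libraries numbered 2 the counts were 2 for NC at 24 h, 4 for NC 24 h against 12 h, 1 for KD at 24 h and 0 for KD against NC in the controls, at 12 h and on the mean of times. Leaving out each library in turn gave 6 to 12 for NC at 12 h, 1 to 4 for NC at 24 h, 4 to 10 for NC 24 h against 12 h, 21 to 27 for KD at 12 h, 1 to 2 for KD at 24 h, 13 to 15 for KD 24 h against 12 h, 28 to 33, 3 to 6 and 20 to 24 for 12 h, 24 h and 24 h against 12 h on the mean of both lines, 0 to 4 for KD against NC in the controls, 0 to 1 at 12 h, 0 to 0 at 24 h and 0 to 3 on the mean of times, and 0 for both interactions. Except where stated, the shares of all tested genes called in these fits are not given. The cause of these shifts was not tested. With 3 libraries a group and few counts for Mcm3, Gins2, Cdc6, Rfc3, Rfc4 and Lig1, changes of these genes were measured with wide errors.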

Other observations

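The Mcm2 to Mcm7 proteins form a ring with 1 copy of each, and their deposited levels differed widely. In the NC controls the authors' TPM was 46.5 ± 3.68 for Mcm2, 1.00 ± 0.157 for Mcm3, 72.8 ± 6.27 for Mcm4, 2.60 ± 0.935 for Mcm5, 8.86 ± 3.44 for Mcm6 and 25.0 ± 1.42 for Mcm7 (SD, n = 3). The highest of these means was 72.7 times the lowest. As CPM per kilobase of merged exons the ratio was 40.0. As CPM per kilobase of the bases that belong to 1 transcript it was 7.01, with Mcm3 at 15.4, Mcm5 at 10.2 and Mcm4 at 71.3. What made the counts of Mcm3 and Mcm5 low was not tested.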
